A study of Homo sapiens with 15 samples.

Results

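IDH2R140W and IDH2R172K, edited lines of the human erythroleukaemia cell line TF-1, were compared with each other. They carry a base-edited mutation at different arginine codons of one gene, IDH2. The members are the 3 libraries of each line, chosen by the genotype in the sample labels, so 6 of the 15 libraries of the series were compared, over 14881 gene symbols that reached 1 TPM in at least 3 libraries. TPM is a transcript abundance corrected for length and brought to the same total in every library.

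The series holds poly(A) RNA from 5 groups of 3 libraries. Parental TF-1 cells were cultured with 2 ng/ml GM-CSF, a growth factor that this line normally needs. The IDH1R132H, IDH2R140Q, IDH2R140W and IDH2R172K lines were cultured without it, and the medium, RPMI-1640 with 10% FBS and 1% antibiotics (penicillin and streptomycin), was shared by all. IDH2R140W and IDH2R172K therefore differ in the edited codon with the medium held the same, whereas any set of values beside Parental also differs in GM-CSF. The labels give neither whether a line is 1 clone or a pool nor whether its 3 libraries were separate cultures. The p-values below therefore cover the spread among the libraries alone, and that spread may be technical. With 1 line for each mutation, the mutation and any other property of that line cannot be told apart.

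IDH2 encodes the mitochondrial NADP-dependent isocitrate dehydrogenase, which oxidises isocitrate to 2-oxoglutarate. Mutations at either of the arginines edited here, both of which touch isocitrate in the active site, give an enzyme that reduces 2-oxoglutarate to D-2-hydroxyglutarate. That metabolite competes with 2-oxoglutarate in the dioxygenases that demethylate DNA and histones, and mutations of both codons recur in acute myeloid leukaemia. TF-1 cells stand near the branch of the red cell, megakaryocyte and mast cell lineages and express genes of all of them.

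R140W replaces the arginine of codon 140 with tryptophan, R140Q replaces it with glutamine, and R172K replaces the later arginine with lysine. Expression values carry no allele, and the edits were not checked here.

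Read depth is unknown, since TPM does not keep it. Between 12946 and 13490 symbols reached 1 TPM in each of the 6 libraries. Across genes, which are not independent, Pearson's r of log2(TPM + 1) was 0.977 to 0.986 within a line and 0.945 to 0.959 between the lines. IDH2R140W replicate 3 stood apart from the other libraries of its line: ribosomal protein genes held 21.9% of its TPM against 18.1% and 18.4%, and 14.8% to 15.1% in the IDH2R172K libraries. Of 20 genes looked at because every cell uses them, 5 were listed at 0 in all 15 libraries (PGK1, UBA1, NDUFB11 and RPL36A among them), as were the erythroid factor GATA1 and the receptor chains CSF2RA and IL3RA. A value of 0 in this table can thus be a failed estimate. Other genes that define the line were present. KLF1, an erythroid transcription factor, stood at 108 ± 4.62 TPM in IDH2R140W and 139.7 ± 6.16 in IDH2R172K, and the progenitor antigen CD34 at 276 ± 34.8 and 533 ± 17.9 (mean ± SD, n = 3 libraries, here and below).

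Differences below are IDH2R140W minus IDH2R172K on the log2(TPM + 1) scale, which understates the difference of genes at low level. A gene was called where limma's Benjamini-Hochberg adjusted p, over all 14881 symbols, was under 0.05 and the levels differed at least 2-fold on that scale. An exact test of 3 libraries against 3 cannot go below p = 0.10, so each adjusted p rests on a spread that limma shares across genes and all 15 libraries.

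The lines differed widely. In all, 1021 genes were called, 6.86% of those tested, of which 363 (2.44%) were higher in IDH2R140W and 658 (4.42%) were lower. The libraries of the lines did not overlap for 6567 genes (44.1%), and 4647 genes (31.2%) had an adjusted p under 0.05 at any size of difference, 12% of all genes higher and 19.2% lower. At least a 4-fold difference was reached by 184 called genes, 45 of them higher in IDH2R140W and 139 lower. The split depends on scaling: 35.6% of the called genes were higher as deposited, 45.7% after median-ratio scaling (472 higher, 561 lower) and 47.7% after quantile normalisation (494 higher, 541 lower). The median of all genes was −0.10 as deposited, and quantile normalisation moved it by 0.10. Without IDH2R140W replicate 3, 403 genes were higher and 576 lower. Of 132 long intergenic non-coding RNAs, 5 were called higher and 16 lower (15.9%), against 281 and 495 of 11334 protein-coding genes (6.85%).

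**Figure D1:**
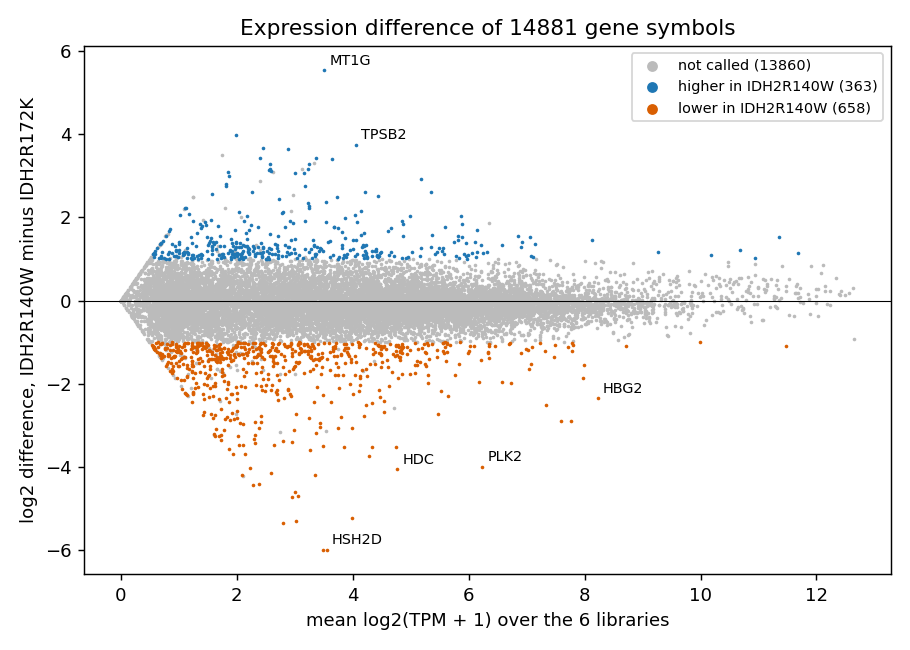
Difference between the lines (y axis, log2, IDH2R140W minus IDH2R172K) against the mean log2(TPM + 1) over the 6 libraries (x axis), with 1 point for each of 14881 symbols. The 363 called higher and 658 called lower lie beyond a difference of 1, and MT1G and HSH2D are among the farthest points.

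IDH2 itself (ENSG00000182054, hg38 chromosome 15, 90083045 to 90102504, minus strand) was read at 46.8, 47.9 and 41.6 TPM in the IDH2R140W libraries and at 33.4, 32.0 and 30.0 in the IDH2R172K libraries. All 3 IDH2R140W libraries were the higher ones, and the difference of 0.50 (SE 0.08, adjusted p = 0.000317) was under 2-fold. IDH2 stood at 52.7 ± 3.18 in Parental and at 74.7 ± 1.03 in IDH2R140Q. IDH1, the cytosolic enzyme (ENSG00000138413, hg38 chromosome 2, 208236227 to 208266074, minus strand), was at 34.6 ± 3.19 and 37.7 ± 2.80, and its libraries overlapped (−0.12, adjusted p = 0.358). Of 10 IDH and 2-hydroxyglutarate enzymes tested 2 were called (20%, against 6.86% of all genes). Both were higher in IDH2R140W, and the list median was 0.19. PHGDH, which starts serine synthesis and can also make 2-hydroxyglutarate, was at 118, 115 and 117 TPM against 42.9, 48.0 and 47.2 (1.33, adjusted p = 2.57e-09). ADHFE1, a mitochondrial transhydrogenase that makes D-2-hydroxyglutarate, was at 3.24, 0.960 and 2.72 against 0.580, 0.320 and 0.770. Its call was lost in several alternatives, among them the fit of only the 6 libraries (1.02, adjusted p = 0.0559) and the fit without IDH2R140W replicate 1 (0.81, 0.0663). D2HGDH, the enzyme that removes D-2-hydroxyglutarate, differed by 0.38 and did not pass (adjusted p = 0.207).

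The 2-oxoglutarate dioxygenases are the enzymes that D-2-hydroxyglutarate is known to inhibit. None of 28 histone demethylases, prolyl hydroxylases and other members was called by limma (median −0.21), while 13 had an unadjusted p under 0.05 (41.4% of all genes did) and 7 an adjusted p under 0.05, 3 higher and 4 lower. Among these 7, the histone H3 lysine demethylase KDM4C was higher in IDH2R140W at 8.37 ± 1.60 against 4.06 ± 0.720 TPM (0.89, 0.000246) and its relative KDM6B was lower, at 9.31 ± 3.14 against 18.5 ± 3.90 TPM (−0.96, 0.0416). Among 10 genes of DNA methylation and demethylation 1 was called by limma (10%, against 6.86% of all genes). It was the dioxygenase TET3, which was lower in IDH2R140W (8.77, 6.64 and 3.49 against 15.1, 18.4 and 17.3, −1.36, adjusted p = 0.00205). TET2 was at 4.53 ± 1.73 and 4.42 ± 0.137 with overlapping libraries. The methyltransferases DNMT3B (20.7 ± 5.43 against 39.7 ± 1.02, −0.94) and DNMT1 (213 ± 22.7 against 292 ± 22.2, −0.45) were under 2-fold.

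Among the largest differences, MT1G, a metallothionein that binds zinc and copper (ENSG00000125144, hg38 chromosome 16, 56666731 to 56668065, minus strand), led the genes higher in IDH2R140W. It was read at 74.6, 75.2 and 79.7 TPM in IDH2R140W and at 0.580, 0.440 and 1.03 in IDH2R172K (5.54, SE 0.19, adjusted p = 1.21e-10). ZMYM2, a zinc finger protein of a corepressor complex, was at 32.9, 33.3 and 31.7 against 1.55, 2.77 and 2.22. Parental and IDH2R140Q stood near the IDH2R140W level of ZMYM2, at 31.3 and 37.6, so IDH2R172K was the low line. The other 10 of the 12 largest differences in this direction ranged from 3.13 (ALB, albumin) to 3.74 (TPSB2, a mast cell tryptase). They included CYTL1, a secreted protein first found in CD34+ cells (16.3 against 0.610 TPM), the neuropeptide gene ADCYAP1 (39.8 against 2.85), LRRN3, a leucine-rich repeat membrane protein (27.0 against 2.15), KIAA1324L (18.8 against 0.533) and the transcript RP11-750H9.5 (25.5 against 1.10). TPSAB1, TPSD1 and IFI27 complete the set and are described with their groups.

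In the other direction, HSH2D, an adaptor protein of haematopoietic signalling (ENSG00000196684, hg38 chromosome 19, 16134028 to 16158575, plus strand), was at 0.710, 0.280 and 0.450 TPM in IDH2R140W and at 92.8, 93.4 and 90.6 in IDH2R172K (−5.99, adjusted p = 4.43e-11). It was also low in Parental (1.89 ± 0.794) and in IDH2R140Q (0.263 ± 0.136), so here IDH2R172K was the high line. TMPRSS15, the intestinal protease enteropeptidase, was at 0.300 against 49.9, and at 0.803 in Parental. BMPER, a secreted regulator of bone morphogenetic proteins, was at 0.640 against 38.5, and stood at 0.630 in Parental, 10.7 in IDH2R140Q and 44.3 in IDH1R132H. Several were transcripts with no protein-coding annotation: LINC01029 (1.75 against 96.0), LINC00922 (0.133 against 22.9), RP11-433M22.2 (0.413 against 88.8), CTA-254O6.1 (0.100 against 43.4), RP3-460G2.2 (1.42 against 42.3) and the transcribed pseudogene TSSC2 (0.0467 against 21.5). SNORD14E, a short nucleolar RNA gene, was listed at 0 in all IDH2R140W libraries and at 31.2, 11.7 and 13.9 in IDH2R172K, and no fold is given. How far poly(A) selection keeps such a short transcript was not tested. NFE4, a factor that takes part in fetal globin transcription, and IGF2BP1 complete the 12 and are described with the globins.

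**Figure D2:**
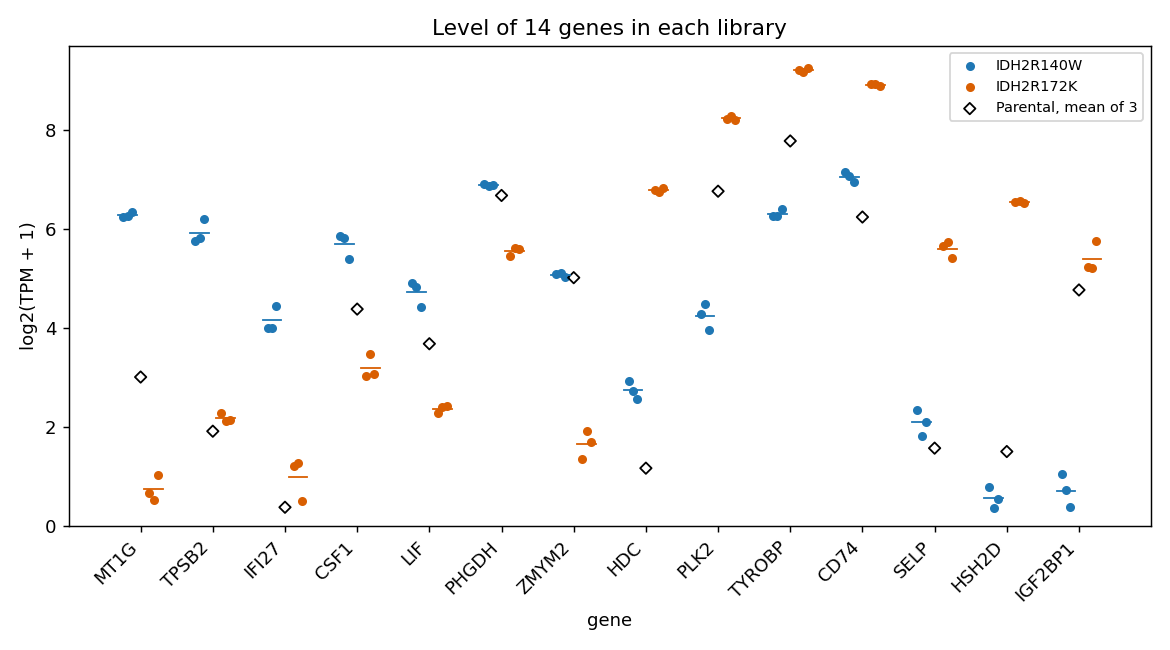
Level of 14 called genes (y axis, log2(TPM + 1)) in each of the 3 libraries of IDH2R140W and of IDH2R172K, with the line's mean as a bar and the Parental mean as a diamond. The 14 were picked from the called genes, and the 2 lines do not overlap for any of them (44.1% of all genes do not overlap). ZMYM2 is at the Parental level in IDH2R140W, and HSH2D is low in both Parental and IDH2R140W.

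Metallothioneins that were called were all higher in IDH2R140W. These proteins buffer zinc and copper, and metals induce them through the factor MTF1. Of 12 listed genes 6 were tested, and the other 6 were listed at 0 in all 6 libraries. Of those tested 3 were called higher and none lower, 50% against 6.86% of all genes (median 1.37). Beside MT1G, MT1X was at 90.8, 76.9 and 95.2 TPM against 24.9, 26.0 and 24.3 (1.76, adjusted p = 5.82e-08), and MT1F at 9.88, 11.04 and 11.6 against 1.12, 0.780 and 0.930 (2.61). MT2A, the most abundant of them, was at 236 ± 27.0 against 119.6 ± 9.48 (0.97, adjusted p = 0.000169), just under 2-fold. The zinc exporter SLC30A1 (0.24) and MTF1 itself (−0.58, adjusted p = 0.102) did not pass. Parental was at 7.20 for MT1G, 29.8 for MT1X and 1.36 for MT1F, and IDH2R140W was above it for all 3. IDH2R172K was below Parental for MT1G (−2.27, adjusted p = 5.64e-07) and did not pass for MT1X (−0.24, 0.120) or MT1F (−0.26, 0.439). The MT1 genes are close copies of each other, and how the counting split their reads is not given.

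The MT1X promoter is shown because it is the called member that the RefSeq promoter table (GRCh38.p14) holds. Capitals mark the core of the metal response element, TGCACNC or TGCGCNC on either strand, in the 250 bases before the start site (chr16:56682220-56682469, plus strand).
MT1X promoter: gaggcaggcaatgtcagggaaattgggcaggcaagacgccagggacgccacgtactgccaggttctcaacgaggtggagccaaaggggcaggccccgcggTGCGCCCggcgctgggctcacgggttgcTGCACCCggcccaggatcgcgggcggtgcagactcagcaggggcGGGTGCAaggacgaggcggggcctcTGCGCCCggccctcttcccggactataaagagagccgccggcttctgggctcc
It held 4 matches in the 300 bases searched, and the MT2A promoter held 8. The core is common: 29.6% of 35116 promoter windows of that length held at least 1 and 2.30% held 3 or more. A match is a description of the letters and was not tested for binding.

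Globin genes differed in both directions. Of 9 globins tested 3 were called lower in IDH2R140W, an embryonic and 2 fetal chains, and 2 were called higher, the adult beta and delta chains. The called globins were 55.6% of those tested, against 6.86% of all genes. HBG2, a fetal gamma chain, was at 113, 127 and 158 TPM in IDH2R140W and at 607, 692 and 728 in IDH2R172K (−2.35, SE 0.20, adjusted p = 6.85e-07). HBG1, its near-identical copy, was at 19.1, 19.0 and 27.2 against 105, 106 and 119 (−2.30), and how reads were divided between these genes is not given. HBZ, the embryonic zeta chain, was at 3.01, 7.21 and 5.24 against 65.9, 64.5 and 71.1 (−3.53, adjusted p = 1.72e-08). The IDH2R172K libraries were high for all 3 genes. Parental had a higher mean, at 880.4 ± 225 for HBG2 and 105 ± 11.3 for HBZ. Against Parental, IDH2R172K was lower for HBZ, under 2-fold (−0.63, limma adjusted p = 0.0251). It did not pass for HBG1 (−0.34, 0.265) or HBG2 (−0.36, 0.167). HBD, the adult delta chain, was at 184, 187 and 224 against 66.2, 71.0 and 63.4 (1.55, adjusted p = 3.51e-08). The adult beta chain gene HBB was at 102, 102 and 134 against 39.5, 39.5 and 45.6 (1.41, 0.000210). For both adult chains IDH2R140W was also above Parental, which stood at 57.2 ± 4.16 and 69.0 ± 8.31. The alpha chains were not called: HBA2 was at 185 ± 31.2 against 286 ± 13.8 (−0.64, 0.00169) and HBA1 at 328 ± 42.0 against 387 ± 17.1 (−0.25, 0.0644). The counts of called globins were the same in each alternative run for them.

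**Figure D3:**
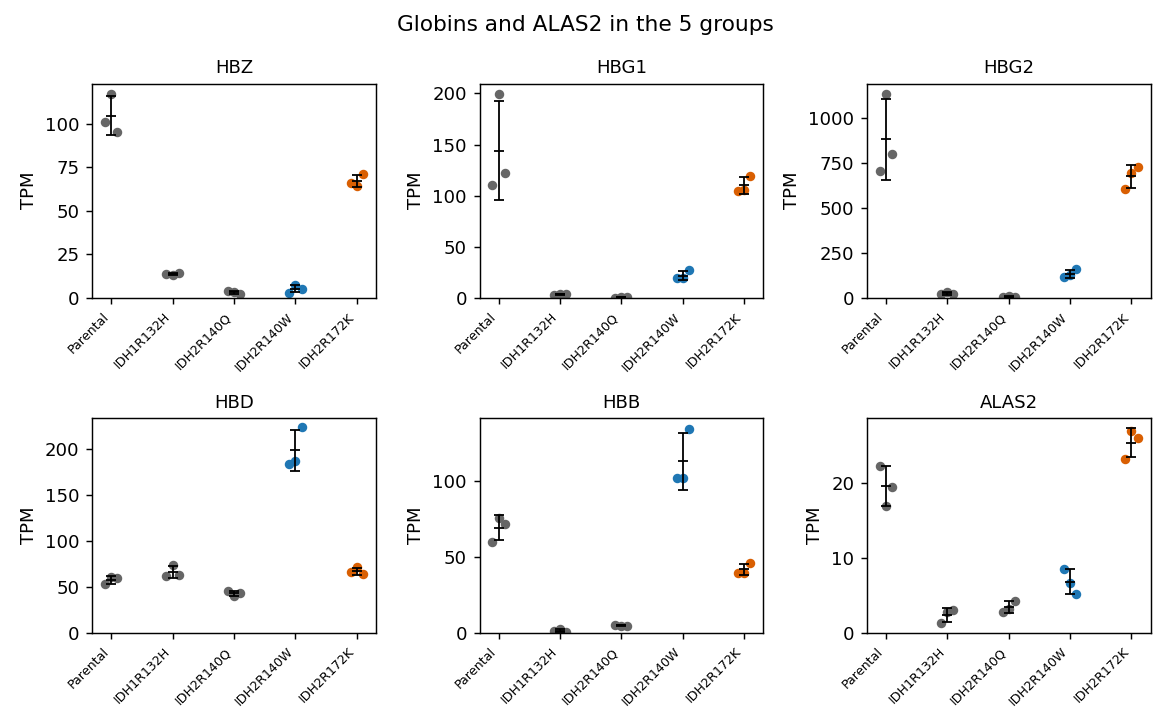
TPM (y axis, from 0, a scale for each gene) of 5 globins and ALAS2 in each library of the 5 groups, with mean and SD (n = 3). HBZ, HBG1 and HBG2 are high in Parental and IDH2R172K, HBD and HBB are highest in IDH2R140W, and ALAS2 is high in Parental and IDH2R172K.

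Genes known for roles in fetal blood cells or in globin transcription were picked out beside the globins after their values were seen, and they did not all go one way. LIN28B, an RNA-binding protein that blocks let-7 microRNAs and marks fetal blood formation, was at 0.190, 0.150 and 0.180 TPM in IDH2R140W and at 9.48, 9.41 and 8.61 in IDH2R172K (−3.11, adjusted p = 8.68e-10). IGF2BP1, an RNA-binding let-7 target, was at 1.05, 0.640 and 0.300 against 36.7, 36.1 and 52.6 (−4.69), and its relative IGF2BP2 at 0.430, 0.870 and 0.110 against 13.01, 6.92 and 8.90 (−2.84). NFE4 was at 0.150, 0.660 and 0.780 against 39.0, 39.5 and 37.0 (−4.72). Parental stood near IDH2R172K for LIN28B (10.9 ± 2.11) and NFE4 (29.2 ± 4.61). BCL11A, a repressor of the gamma globin genes, was at 3.60, 5.70 and 4.69 against 1.99, 2.45 and 1.59, and the difference of 0.90 (adjusted p = 0.00364), higher in IDH2R140W, was under 2-fold. LIN28B, IGF2BP1 and IGF2BP2 were 3 of the 4 stem and progenitor genes called lower, of 14 tested, and the other was MEIS1, a HOX cofactor (−1.20). MEIS1 was the only gene called among 21 HOX genes and cofactors (4.76%, against 6.86% of all genes). Of the same 14, KIT, the stem cell factor receptor (14.05 against 3.12 TPM, 1.85), and ALDH1A1, an aldehyde dehydrogenase (186 against 75.3, 1.29), were called higher. In all, 42.9% of the 14 were called, against 6.86% of all genes.

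Most of the other called red cell genes were lower in IDH2R140W. None of 13 erythroid transcription factors and receptor genes was called by limma (median −0.26), and 9 had an unadjusted p under 0.05 (41.4% of all genes did). NFE2 (0.53), KLF1 (−0.37) and the erythropoietin receptor EPOR (−0.91) had limma adjusted p-values of 8.51e-07, 0.000247 and 4.67e-06 under 2-fold. Of 26 red cell membrane, carbonic anhydrase and iron genes 6 were called lower and 1 higher, 26.9% against 6.86% of all genes (median −0.23). The surface glycophorins GYPB (7.03 ± 2.02 against 44.1 ± 3.11 TPM, −2.52) and GYPE (8.98 ± 1.58 against 48.1 ± 2.26, −2.31) were lower, with the caution that they are close copies. So were AHSP, the alpha globin chaperone (10.9 ± 3.44 against 32.4 ± 2.66), the anion exchanger SLC4A1 (1.51, 0.0700 and 0.0700 against 2.57, 1.78 and 2.47) and the carbonic anhydrase CA1 (54.9 ± 3.87 against 118 ± 11.8), whose difference of −1.09 was −0.98 after median-ratio scaling and after quantile normalisation. CA2, the other red cell carbonic anhydrase, was the higher one (8.22, 7.62 and 7.10 against 1.44, 0.470 and 1.11, 2.14). Of 15 haem synthesis genes 1 was called by limma (6.67%, against 6.86% of all genes). It was ALAS2, the erythroid enzyme that starts the pathway, at 8.57, 6.66 and 5.22 against 23.4, 27.1 and 26.1 (−1.78, adjusted p = 2.95e-05). The transferrin receptor TFRC was lower in IDH2R140W (617 ± 144 against 930.4 ± 15.2, −0.62) and the ferritin genes FTH1 (0.53) and FTL (0.83) were higher, with adjusted p-values of 0.0125, 3.67e-05 and 5.82e-08, all under 2-fold. In bulk RNA, fewer cells of a type and less RNA per cell cannot be told apart.

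Megakaryocyte and platelet genes that were called were all lower in IDH2R140W. Of 19 tested 5 were called lower and none higher, 26.3% against 6.86% of all genes (median −0.68). Without any 1 library 5 to 7 were called lower. SELP, the platelet adhesion molecule P-selectin, was at 4.07, 2.53 and 3.30 TPM in IDH2R140W and at 49.0, 52.4 and 41.7 in IDH2R172K (−3.51, adjusted p = 1.49e-09). F13A1, a clotting factor subunit, was at 4.86, 5.14 and 3.55 against 47.0, 45.9 and 41.9 (−3.07). The granule GTPase RAB27B (−2.04) and the von Willebrand factor receptor chain GP1BA (44.9 ± 6.69 against 121 ± 4.33, −1.42) were lower as well. These 4 were named for their small adjusted p, and the 3 IDH2R172K libraries were the higher ones for each (44.1% of all genes did not overlap). Parental was nearer IDH2R140W for SELP (2.00) and F13A1 (3.65). ITGA2B, the platelet integrin alpha chain, did not pass at 425 ± 6.39 against 449 ± 7.78 (−0.08, 0.208).

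Genes of mast cells, basophils and eosinophils were split, with mast cell tryptases higher in IDH2R140W and the histamine-making enzyme lower. Of 21 tested 8 were called higher and 5 lower, 61.9% against 6.86% of all genes (median 0.36). After median-ratio scaling and after quantile normalisation 3 were called lower. The tryptases TPSB2 (53, 55.3 and 72.1 TPM against 3.82, 3.36 and 3.42, 3.74, adjusted p = 2.85e-09), TPSAB1 (17.8, 16.7 and 18.1 against 1.14, 0.790 and 0.780, 3.29) and TPSD1 (28.1, 31.0 and 26.8 against 1.40, 2.22 and 2.72, 3.27) were higher, and TPSG1 was at 1.98, 1.25 and 1.51 in IDH2R140W and listed at 0 in IDH2R172K. The tryptases are neighbours on chromosome 16 and share near-identical stretches, so they are not independent measurements. ENPP3, an ectoenzyme on activated basophils, was at 32.7, 24.1 and 19.4 against 1.61, 1.69 and 3.23 (3.06). PRG2, the eosinophil major basic protein (238 ± 95.6 against 78.7 ± 16.7, 1.53), IL5RA, the interleukin 5 receptor (1.59), and KIT were also higher. HDC, which makes histamine (ENSG00000140287, hg38 chromosome 15, 50241947 to 50266026, minus strand), was at 6.64, 5.6 and 4.87 against 109, 107 and 113 (−4.05, adjusted p = 8.29e-09). MS4A3 (76.0 ± 4.53 against 184 ± 9.92, −1.26), the Fc receptor gamma chain FCER1G (71.0 ± 9.11 against 148 ± 6.89, −1.05) and the sialic acid receptors SIGLEC8 (−2.08) and SIGLEC6 (−1.07) were the others lower in IDH2R140W. FCER1A, the IgE-binding chain, was at 319 ± 13.7 against 248 ± 3.57 (0.36, adjusted p = 0.00184), under 2-fold.

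Of 19 monocyte and macrophage genes tested 5 were called lower in IDH2R140W and 1 higher, 31.6% against 6.86% of all genes (median −0.32). TYROBP, the signalling adaptor DAP12, was at 76.1, 75.3 and 83.3 TPM against 594, 572 and 608 (−2.90, SE 0.07, adjusted p = 9.09e-12), and CSF1R, the receptor of macrophage colony-stimulating factor, at 0.700, 0.850 and 1.08 against 20.2, 20.4 and 18.2 (−3.46). AIF1 (−2.34, 6 rows summed) and the scavenger receptor CD36 (−1.70) were lower, and CEBPA, a myeloid transcription factor, was higher (36.1, 35.4 and 24.3 against 6.35, 10.2 and 7.11, 1.89). Of 9 neutrophil granule genes tested 3 were called lower and 1 higher, 44.4% against 6.86% of all genes (median −0.11). By limma 3 were higher and 3 lower at an adjusted p under 0.05 at any size (12% and 19.2% of all genes). The called ones that were lower were LCN2 (−1.61), CTSG (−1.24) and MPO (−1.26). MPO was near the floor, at 0, 0.04 and 0.03 TPM against 1.62, 1.55 and 1.19. The higher one was the repressor GFI1 (22.1, 19.7 and 16.5 against 3.66, 3.20 and 3.28, 2.22). CTSG did not pass with a pseudocount of 0.1 (−1.27, adjusted p = 0.106), which leaves 2 lower. Defining genes of mature cells of these lineages were near 0: 11 of 30 monocyte genes, CD14, CD163 and S100A8 among them, and 9 of 19 neutrophil genes, ELANE, PRTN3 and CAMP among them, were below 1 TPM in all 6 libraries.

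Markers of lymphoid and non-blood cells were also read. Of 27 lymphoid markers 18 were below 1 TPM in all 6 libraries, among them CD3E, CD2, LCK and PAX5, and 9 were listed at 0 in all, including MS4A1 and CD79A. Of the 10 tested 3 were called lower in IDH2R140W, PRF1, the pore-forming perforin (3.70, 2.75 and 2.30 against 27.5, 27.6 and 31.6, −2.95), CD3D (9.09 ± 1.72 against 52.7 ± 3.68, −2.42) and NKG7 (−1.29), and 2 higher, GZMB (1.22) and TRAC (1.00), both below 4 TPM in every library. GZMB was at 0.99, under 2-fold, without IDH2R140W replicate 3. The called members were 50% of the 10 tested, against 6.86% of all genes. The summed lymphoid list was 27.6 to 34.9 TPM in IDH2R140W and 108.6 to 111.7 in IDH2R172K. Of 17 stromal, endothelial and epithelial markers 8 were below 1 TPM in all 6 libraries. Of 7 tested 2 were called (28.6%, against 6.86% of all genes), both lower in IDH2R140W. They were CDH5, an endothelial cadherin (0.880, 0.330 and 0.190 against 24.5, 24.5 and 24.4, −4.15), and KDR, a vascular growth factor receptor (8.01 ± 2.18 against 29.7 ± 1.76, −1.80).

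Interferon-stimulated genes were called higher in IDH2R140W for 7 of 49 tested and lower for none (median 0.17). The called share was 14.3%, against 6.86% of all genes, and 5 to 8 were called higher without any 1 library. IFI27, a mitochondrial interferon-induced protein, was at 15, 14.99 and 20.8 TPM against 1.32, 1.40 and 0.410 (3.16, adjusted p = 1.77e-07). ISG15, a ubiquitin-like modifier, was at 87.1, 97.7 and 116 against 37.3, 37.0 and 38.3 (1.38, 2.87e-06). IFI44 (62.4 ± 7.86 against 28.3 ± 1.48), IFI44L (1.06), OASL (1.01), the guanylate-binding protein GBP2 (1.27) and the nucleotide kinase CMPK2 (1.09) were the others. GBP2 and CMPK2 were at 1.00 without IDH2R172K replicate 3 and 0.98 without IDH2R140W replicate 2, just under 2-fold. At an adjusted p under 0.05 at any size 16 were higher and 2 lower (12% and 19.2% of all genes), and 28 of 49 differences were above 0. IRF7, a transcription factor of the pathway, did not pass (0.22, adjusted p = 0.173). Parental was below both lines for IFI27 (0.317), ISG15 (22.1) and IFI44 (9.77), but not for every called gene. For CMPK2 it stood at 23.8, near IDH2R140W (25.6) and above IDH2R172K (11.4). For GBP2, IDH2R172K did not pass against Parental (0.26, limma adjusted p = 0.307).

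The ISG15 promoter is shown as that of an interferon-stimulated gene among those called. Capitals mark the interferon-stimulated response element, a pair of GAAA half-sites with any 2 bases between them on either strand, here 2 overlapping matches in the 250 bases before the RefSeq start site (GRCh38.p14, chr1:1013247-1013496, plus strand).
ISG15 promoter: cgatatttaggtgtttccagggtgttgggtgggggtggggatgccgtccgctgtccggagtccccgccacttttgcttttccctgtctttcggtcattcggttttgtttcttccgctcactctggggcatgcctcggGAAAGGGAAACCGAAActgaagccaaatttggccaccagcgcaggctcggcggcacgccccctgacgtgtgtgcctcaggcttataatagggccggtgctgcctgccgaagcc
Of the called members 5 were in the promoter table and 4 held a match in at least 1 of their windows, against 24 of 33 members that were not called. The element was in 3.57% of all 35116 promoter windows.

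HLA class II genes that were called were all lower in IDH2R140W. Class II molecules present peptides to helper T cells, and the factor CIITA drives their genes. Of 10 tested 4 were called lower and none higher, 40.0% against 6.86% of all genes (median −0.85). CD74, the invariant chain that escorts class II molecules, was at 139.9, 133 and 121 TPM against 484, 489 and 471 (−1.87, adjusted p = 1.49e-09). CIITA was at 1.57, 2.07 and 1.63 against 8.47, 8.52 and 7.44 (−1.73), HLA-DRA at 11.7, 11.3 and 17.4 against 33.6, 33.1 and 36.2 (−1.31, 7 rows summed) and HLA-DRB5 at 3.34, 3.13 and 3.08 against 11.8, 13.2 and 12.3 (−1.68). HLA genes have close copies and alternative haplotypes among the reference sequences, which can divide their reads. Of the 5 groups IDH2R140Q had the highest mean of both CD74 and CIITA, at 727 and 22.3. By limma none of 11 HLA class I genes was called (median 0.03), and 7 had an unadjusted p under 0.05 (41.4% of all genes did).

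Of 13 growth factor genes tested 5 were called higher in IDH2R140W and none lower, 38.5% against 6.86% of all genes (median 0.40). CSF1, macrophage colony-stimulating factor, was at 57.0, 55.2 and 40.9 TPM against 7.16, 10.0 and 7.35 (2.50, adjusted p = 5.82e-08). The interleukin 6 family cytokines LIF (29.1, 27.1 and 20.3 against 3.84, 4.24 and 4.31, 2.36) and OSM (34.6, 40.3 and 34.5 against 9.71, 7.40 and 5.70, 2.14) were higher, and they are neighbours on chromosome 22. So were ANGPT2, a ligand of the TIE2 receptor (64.0 ± 14.2 against 25.2 ± 2.04), and PDGFA (1.19). CSF2, which encodes GM-CSF itself, was at 10.4 and 9.64 TPM and did not pass (0.10, adjusted p = 0.571). Between the 2 lines CSF1 was high where its receptor CSF1R was low, a pair set side by side after the values were seen. CSF1R was also low in Parental (2.29 TPM, with CSF1 at 20) and in IDH2R140Q (2.41, with CSF1 at 19.98).

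Cytokine receptors were called in both directions, 3 higher and 3 lower of 24 tested (25%, against 6.86% of all genes). IL1RL1, the interleukin 33 receptor, was at 14.9, 16.7 and 9.21 against 1.54, 3.72 and 2.00 (2.11), and it stood beside KIT and IL5RA among the higher ones. IL10RA was lower (10.8, 8.99 and 6.98 against 22.2, 21.7 and 22.2, −1.23), and CSF1R was among the lower ones too. CSF2RB, the beta chain shared by the GM-CSF, interleukin 3 and interleukin 5 receptors, was at 186, 186 and 129.7 against 119, 118 and 123 (0.45, adjusted p = 0.0316), under 2-fold. Of 19 STAT5 targets 3 were called higher (LIF, OSM and FOS) and 1 lower (CCND1), 21.1% against 6.86% of all genes. The STAT5 feedback genes CISH (−0.33) and SOCS2 (0.64) leaned in opposite directions under 2-fold, and PIM1 did not pass (0.08, limma adjusted p = 0.473). Among 22 genes of ERK feedback 2 were called higher and 2 lower (18.2%, against 6.86% of all genes). The higher ones were the immediate early factors FOS (13.4 against 5.54, 1.17) and EGR3 (1.40). The lower ones were the phosphatase DUSP4 (−1.37) and cyclin D1, CCND1 (42.7, 39.6 and 19.96 against 103, 91.9 and 92.6, −1.54). Of 25 NF-kB and inflammatory targets 2 were called (8%, against 6.86% of all genes), both higher. They were the chemokines CCL2 (68.8, 68.7 and 74.5 against 22.7, 21.4 and 24.8, 1.58) and CCL7 (2.39, 3.61 and 6.40 against 0.310, 0.230 and 0.550, 1.84), which lie next to each other on chromosome 17.

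Every called gene of the adhesion and BMP lists was lower in IDH2R140W. Of 28 adhesion genes 8 were called lower and none higher, 28.6% against 6.86% of all genes (median −0.54). CDH26, a cadherin (7.21, 6.53 and 6.46 TPM against 20.4, 22.2 and 24.5, −1.59), the matrix protease MMP9 (2.14, 2.41 and 2.04 against 6.28, 6.40 and 6.54, −1.21), the gut-homing integrin chain ITGB7 (14.7 ± 0.543 against 33.0 ± 0.784, −1.12) and the P-selectin ligand SELPLG (32.0 ± 2.59 against 65.9 ± 0.503, −1.02) had the smallest adjusted p-values. CDH2 (−1.78), ITGA6 (−1.30) and ITGA9 (−1.31) were also called. ITGB7 was under 2-fold after quantile normalisation (−0.99), and SELPLG after both other scalings, with library weights and without IDH2R140W replicate 3 (−0.96). CD44, the hyaluronan receptor, was at 611, 560.1 and 407 against 929, 904 and 909 (−0.82, adjusted p = 0.000553), under 2-fold. Of 16 ID factors and BMP signalling genes 5 were called lower and none higher, 31.25% against 6.86% of all genes (median −0.67). Beside BMPER they were the inhibitory SMAD6 (9.89, 7.62 and 5.92 against 34.9, 30.9 and 37.4, −2.03), ID3, which binds and blocks basic helix-loop-helix factors (14.1, 15.8 and 18.7 against 43.7, 42.9 and 49.5, −1.43), the latent TGF-beta binding protein LTBP1 (−1.34) and the receptor ACVRL1 (−1.39). ID2 was at 57.7 ± 2.79 against 116 ± 9.84, a difference that fell just short of 2-fold, and ID1 did not pass (−0.22, 0.0693).

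Every called gene of serine synthesis and the amino acid response was higher in IDH2R140W. Of 17 genes of serine and one-carbon metabolism 5 were higher and 4 lower by limma at an adjusted p under 0.05 at any size (12% and 19.2% of all genes). The list median was −0.19, and 3 were called higher and none lower (17.6% called, against 6.86% of all genes). Beside PHGDH these were SHMT2, the mitochondrial enzyme that turns serine into glycine (164, 159 and 133 TPM against 69.9, 57.6 and 51.6, 1.34, adjusted p = 1.27e-06), and CTH, which makes cysteine (14.1, 11.4 and 9.69 against 3.63, 4 and 3.25, 1.45). MTHFD2, the next mitochondrial step, was lower under 2-fold (176 ± 23.3 against 247 ± 5.11, −0.50, 0.000335). Of 30 genes of the ATF4 and amino acid response 4 were called higher and none lower (13.3% called, against 6.86% of all genes). The list median was 0.32, and by limma 16 were higher and 2 lower at an adjusted p under 0.05 at any size (12% and 19.2% of all genes). The 4 were PHGDH, the asparagine synthetase ASNS (31.7, 28.8 and 32.5 against 9.63, 9.65 and 8.84, 1.62), the mTORC1 inhibitor DDIT4 (56.7, 54.2 and 52.0 against 15.5, 15.8 and 12.4, 1.84) and the stress factor ATF3 (1.26). Parental stood near or above IDH2R140W for PHGDH (101), SHMT2 (166), CTH (17.3), ASNS (39.3) and DDIT4 (102), so IDH2R172K was the low line for these. Of 24 NRF2, glutathione and NADPH genes 1 was called (4.17%, against 6.86% of all genes). It was MGST1, a membrane glutathione transferase (38.6, 45.3 and 52.1 against 6.36, 5.49 and 7.81, 2.62).

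Cholesterol synthesis genes were lower in IDH2R140W for 15 of 23 tested, and higher for none, at an adjusted p under 0.05 at any size (19.2% of all genes were lower; list median −0.45). Of these, 2 were called (8.70% of the list, against 6.86% of all genes). IDI1, the isomerase that makes the dimethylallyl unit, was at 92.3 ± 4.14 against 133 ± 5.47 (−0.53, 0.000309), under 2-fold. Of 20 fatty acid genes 10% were called, against 6.86% of all genes. The carboxylase ACACB was lower (−1.57) and the acyl-CoA synthetase ACSL1 higher (1.14). By limma none of 23 TCA cycle and glutaminase genes was called (13 at an unadjusted p under 0.05), nor any of 28 glycolysis and hypoxia genes (11) or of 13 mitochondrially encoded genes (6). Over all genes 41.4% had an unadjusted p under 0.05. Among 16 genes of branched-chain amino acid breakdown 1 was called (6.25%, against 6.86% of all genes). It was ACADSB (18.2, 20.4 and 7.14 against 30.4, 31.6 and 30.0), whose difference of −1.08 was −0.64 without IDH2R140W replicate 3.

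Ribosomal protein genes were higher in IDH2R140W by a small amount. Of 73 tested 70 differences were above 0 (median 0.37), 64 had libraries that did not overlap (44.1% of all genes), and 52 were higher and 1 lower at an adjusted p under 0.05 at any size (12% and 19.2% of all genes). The called ones were 3 (4.11%, against 6.86% of all genes), all higher. RPS6 was at 4059.7, 4203 and 5171 TPM against 1532, 1560.2 and 1529 (1.53, adjusted p = 1.08e-07), RPS27A at 2247, 2345 and 2933 against 1047, 1084 and 1073 (1.22) and RPL7 at 2702, 2737 and 2925 against 1375, 1391 and 1332 (1.03). RPL7 was at 0.87 after quantile normalisation and 0.99 without IDH2R140W replicate 3, under 2-fold. Parental was near IDH2R140W for RPS6 (4396), RPS27A (2360.4) and RPL7 (2609). The list median was 0.18 after quantile normalisation. The ribosomal protein share of TPM moves with this list and was highest in IDH2R140W replicate 3, and its part in the other differences was not tested.

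Mitotic genes leaned the other way. Of 41 tested 36 differences were below 0 (median −0.40, −0.27 after quantile normalisation), and 38 had libraries that did not overlap (44.1% of all genes). By limma 26 were lower and 3 higher at an adjusted p under 0.05 (19.2% and 12% of all genes). An unadjusted p under 0.05 was held by 34 (41.4% of all genes), but none reached 2-fold and was called. The mitotic kinase AURKA was at 81.3 ± 11.1 against 122 ± 6.35 TPM (−0.59, 0.000712) and the topoisomerase TOP2A at 125 ± 14.6 against 197 ± 3.29 (−0.65, 8.93e-05). By limma no gene was called among 33 of DNA replication (median −0.17), 32 of homologous recombination (−0.19) and 15 of the BCL2 family (0.07). In these lists 21, 16 and 7 genes had an unadjusted p under 0.05, against 41.4% of all genes. CCND3, the cyclin D of blood cells, was at 329 ± 6.60 against 578 ± 10.2 (−0.81, 3.69e-08), under 2-fold. Of 21 p53 targets 1 was called lower and 1 higher (9.52% called, against 6.86% of all genes). PLK2, a polo-like kinase induced by p53 (ENSG00000145632, hg38 chromosome 5, 58453982 to 58460260, minus strand), was at 18.3, 21.4 and 14.5 TPM against 299, 309 and 291 (−3.99, SE 0.13, adjusted p = 9.76e-11), with Parental between them at 108 ± 17.99. TP53I3, an oxidoreductase, was at 13.7, 12.3 and 12.99 against 5.21, 6.30 and 6.12 (1.03), and it was under 2-fold without IDH2R140W replicate 1 (0.99) and without IDH2R172K replicate 1 (0.96). CDKN1A, the p53 target that encodes the cell cycle inhibitor p21, did not pass (0.14, 0.417).

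**Figure D4:**
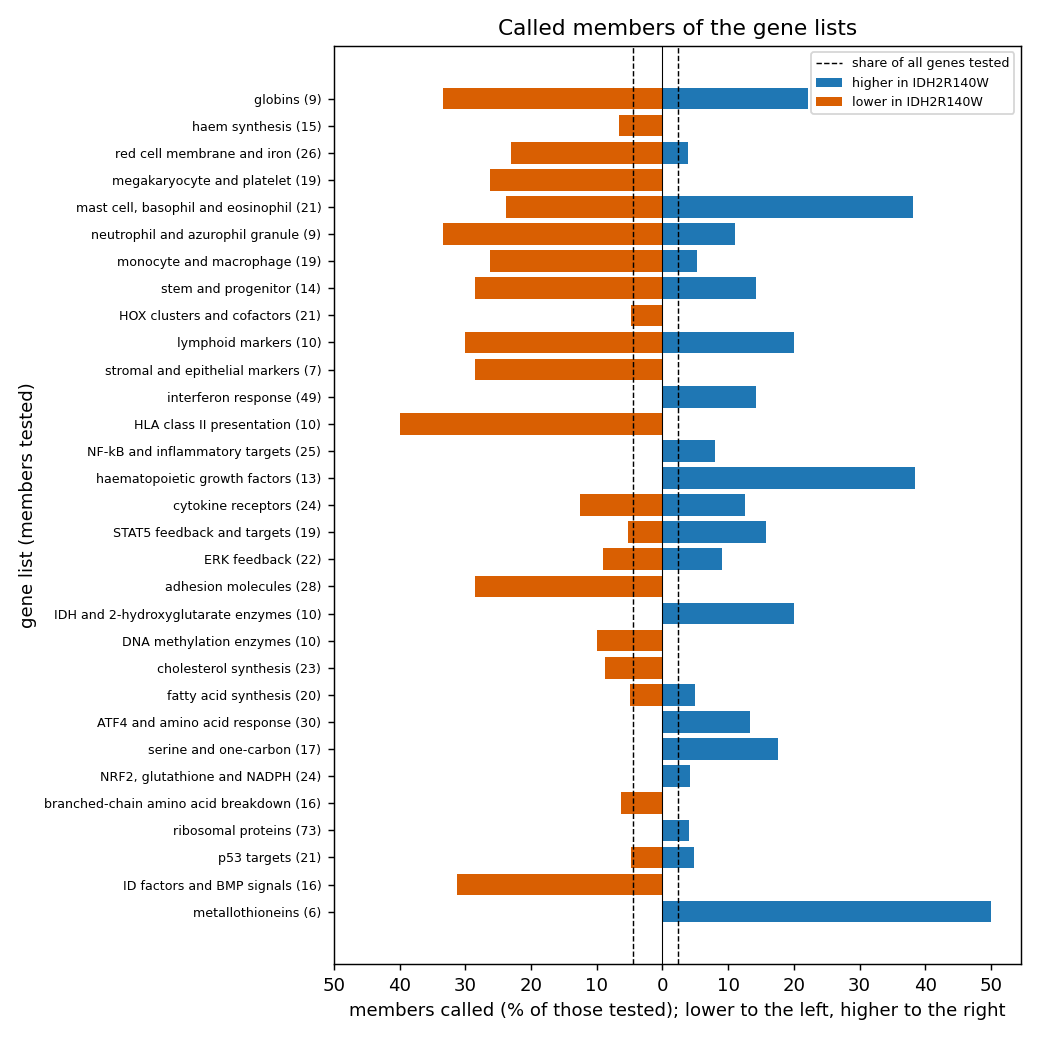
Share of each gene list's tested members (x axis, percent) that was called lower in IDH2R140W (left, orange) or higher (right, blue), for the lists with a called member, with the number tested in brackets. The dashed lines mark the share of all genes, 4.42% lower and 2.44% higher, and metallothioneins, growth factors and mast cell genes reach farthest to the right.

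The differences were also set along the chromosomes, over 11308 protein-coding genes with a single hg38 position, whose median was −0.10. Chromosome 13 genes stood higher in IDH2R140W, with a median of 0.28 over 201 genes, 21 called higher and 6 lower, and so did those of chromosome 8, with 0.26 over 371 genes. Chromosome 20 genes stood lower, with a median of −0.45 over 324 genes, 3 called higher and 42 lower. On chromosome 19, 71 genes were called lower and 6 higher, with a median of −0.22.

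Medians of 25 neighbouring genes showed where on the chromosomes the differences lay. The windows named here were picked because they were the most extreme, so they are a description with no test. On chromosome 13 the 25 genes from 43823909 to 49528987 (CCDC122 to PHF11) were all above 0, with a median of 0.90 and 9 called higher. Relative to the median of all genes, these 25 stood at −0.03 in IDH2R140W and at −1.03 in IDH2R172K against Parental, so IDH2R172K was the line that departed from it. The same held on chromosome 9 from 12775021 to 26947463 (median 0.80, 6 called higher; 0.09 and −0.59 against Parental) and on chromosome 2 from 46916157 to 60555154 (0.70, 3 called higher; −0.06 and −0.85). On chromosome 14, from 100291111 to 103714249 (median 0.59, 1 called higher), IDH2R140W was the line that departed, at 0.63 against −0.05 in IDH2R172K.

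Windows low in IDH2R140W were on chromosome 22 from 46150521 to 50475024 (median −0.78, 6 called lower), on chromosome 20 from 36612318 to 41196801 (−0.77, 7 called lower) and on chromosome 19 from 57466663 to 58155110 (−0.72, 3 called lower, a run of zinc finger genes). Against Parental, the chromosome 20 genes stood at −0.22 in IDH2R140W and 0.46 in IDH2R172K. The zinc finger genes stood at 0.51 and 1.14, above Parental in both lines. Several genes described above lie inside such windows: RPS6 in that of chromosome 9, RPS27A and BCL11A in that of chromosome 2, and RPL7 in one on chromosome 8 with a median of 0.66. TET3 and MTHFD2 lie on chromosome 2 in a window from 73385758 to 74555690 with a median of −0.62. TFRC lies on chromosome 3 in one from 194394821 to 196943540 with a median of −0.66 (−0.42 in IDH2R140W and 0.17 in IDH2R172K against Parental). Position moves with the difference of these genes, and its part in their values was not tested.

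**Figure D5:**
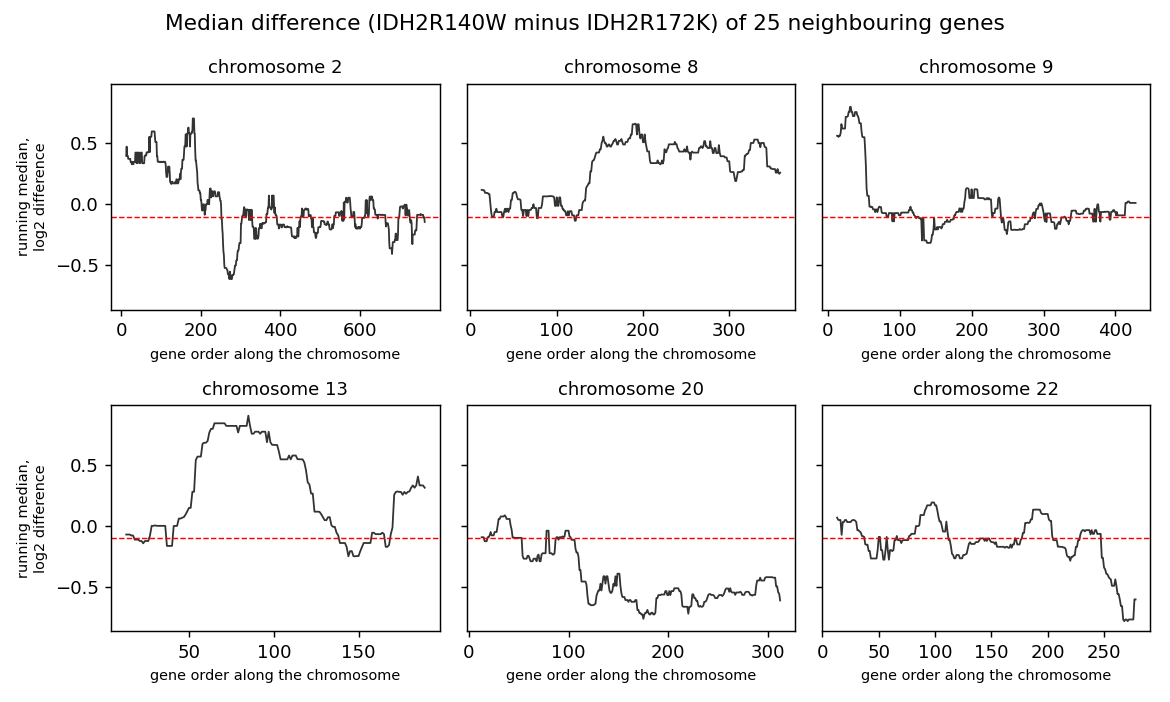
Median log2 difference (y axis, IDH2R140W minus IDH2R172K) of 25 neighbouring protein-coding genes by gene order (x axis) on 6 chromosomes, with the median of all protein-coding genes, −0.10, as a dashed line. Long runs stand above it on chromosomes 2, 8, 9 and 13 and below it on chromosomes 20 and 22.

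IDH2R140Q, the other line edited at codon 140, was set beside both lines as a description. Its mean lay nearer to IDH2R140W than to IDH2R172K for 601 of the 1021 called genes (58.9%), for 234 of the 363 higher and for 367 of the 658 lower ones, against 46.5% of all genes tested. Across genes, r was 0.953 to 0.968 between IDH2R140Q and IDH2R140W libraries and 0.948 to 0.958 between IDH2R140Q and IDH2R172K libraries. PLK2 was at 18.6 TPM in IDH2R140Q against 18.1 in IDH2R140W and 299.8 in IDH2R172K, and TYROBP at 87.3 against 78.2 and 591, both nearer IDH2R140W. HSH2D (0.263), HDC (2.63) and HBG2 (6.07) were below the mean of both lines there. MT1G was at 0.573 in IDH2R140Q against 76.5 and 0.683, TPSB2 at 4.64 against 60.1 and 3.53, and F13A1 at 62.6 against 4.52 and 44.9, each nearer IDH2R172K. CCL2 (5.07 against 70.7 and 23.0) and LIF (1.68 against 25.5 and 4.13) were lower in IDH2R140Q than the mean of either line.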

How the data were processed

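The 15 libraries are poly(A) RNA of TF-1 cells, grouped by the genotype that the labels give. The authors deposited TPM values in one table with a column per library and a symbol per row. The submitters' processing notes list STAR 2.7.3, HTSeq, RSEM, DESeq2 and hg38, and do not say what each was used for. Which annotation was counted, and whether by strand, is not given in the sources used here. A few abundant genes can move every other TPM value, and depth is unknown.

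The table held 63568 rows. Rows sharing a symbol were summed (56624 symbols, 2985 from several rows), and 6 rows turned into ambiguous dates were left out. Of the symbols, 14881 passed the minimum of 1 TPM in 3 libraries, and GENCODE 29 gave 12517 of them (84.1%) a position. The log2(TPM + 1) values entered a limma fit (limma 3.58.1, R 4.3.3) with a mean for each of the 5 groups and an intensity trend, and p-values were adjusted by Benjamini-Hochberg. The named genes are IDH1 and IDH2, the 12 largest differences each way among called genes reaching 10 TPM in the higher line without overlap, and up to 4 called members of each of 41 lists by adjusted p. Other list members stand beside their list's count. The comparison and the lists were chosen with earlier results of these data known. Data were simulated for this comparison over 14881 genes, with changes planted only in genes at a mean level of about 10 TPM or more. Of these, 67 of 67 changed by 1.5, 66 of 67 by 2 and 66 of 66 by 3 (log2) were recovered. There was 1 false call. Genes below that level carried no planted change, so the counts give no recovery for them. With no change simulated, 0 calls were made. The noise was drawn independently for each gene and library from the spread within groups. Shifts shared by the genes of a library or line were not simulated, so the counts cannot speak to them. Promoter sequences come from RefSeq (GRCh38.p14). Some list members that were counted are not reported here by name. Alternatives changed the pseudocount, the minimum, the scaling or the fit, added the replicate number as a block, or left out each library in turn.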

Additional observations from a re-analysis of the deposited data

How the results depend on the processing

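The count of genes called higher in IDH2R140W was 598 with a pseudocount of 0.1, where 904 were lower, against 363 and 658 with a pseudocount of 1. In the other alternatives it ran from 274 (a minimum of 5 TPM, with 457 lower) to 494 (quantile normalisation), and without each library in turn from 353 to 403 higher and from 576 to 737 lower, 979 to 1103 in all, lowest without IDH2R140W replicate 3. The median difference over all genes was 0 with no minimum, −0.0040 after median-ratio scaling and 0.0050 after quantile normalisation, and −0.121 to −0.0377 without each library in turn. The replicate numbers did not pair the samples: deviations of same-numbered libraries correlated at 0.062, 0.013 and −0.0037. With the replicate number as a block 364 genes were higher and 662 lower, of which 1016 were among the 1021. Of 107 named genes, which include IDH1 and IDH2 though these were not called, 11 lost their call in at least 1 alternative that tested them. None reversed. A gene that an alternative left out does not count as a lost call there. At the minimum of 5 TPM, ADHFE1, DUSP4, EGR3, GZMB and MPO were not tested. AIF1 and HLA-DRA were absent where symbols on several rows were left out. HBD, HBG1, HBG2 and HBZ were absent where values were rescaled without globin genes. Low-level genes depend most on the pseudocount and minimum, and TPM gives no depth to say which of their values are precise.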
